A study of Mus musculus with 16 samples.

Results

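Prdm1 encodes Blimp-1, a DNA-binding zinc finger protein that represses transcription. In mice it is known from plasma cells, from the primordial germ line and from the gut, where the epithelium makes it before birth and during suckling and stops at weaning, and where its deletion brings on adult-type enterocyte genes early. The H3K27ac mark, acetylation of lysine 27 on histone H3, sits on active promoters and enhancers, and long runs of it are known at genes with many active enhancers. The data here are peaks of that mark at the Prdm1 locus in epithelium of the mouse small intestine, from ChIP-seq, in which chromatin fragments bound by an antibody to the mark are sequenced. RNA and protein were not part of the measurement, so the known role of the factor was not tested.

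The locus was taken as all called peaks that overlap 90 kb of chromosome 10, chr10:44140001-44230000 on build mm9. Within it an interval of 22 kb, 44157000 to 44179000, was taken as the gene, which is read on the minus strand, so that 51 kb lie upstream of its start and 17 kb downstream of its end. In all, 108 of the 369142 peaks in the 8 lists fell in the window. The locus was chosen by its covered length, which had been seen to differ between embryo and adult. Its embryonic and adult levels are therefore a description, and p-values are given only for the contrasts within the embryo and within the adult.

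There were 4 groups of 2 libraries, described in the series as biological duplicates. E12.5 and E14.5 are epithelium of the embryonic small intestine on those days, sorted as live cells positive for EpCAM, a surface protein of epithelia, without CD45 (leukocytes) or CD31 (endothelium). ISC are intestinal stem cells with high GFP from the Lgr5 locus, and enterocytes, the absorptive cells, were sorted by the same EpCAM, CD31 and CD45 gate as the embryonic cells. Both adult groups came from males at postnatal day 60 that carry the Lgr5EGFP-Cre-ERT allele, which reports the stem cells by GFP. The strain is given as mixed C57BL/6 CD1 for all 4 groups. The sex of the embryos, the number of animals behind a library and whether embryos carried the allele are not given in the sources used here. In sorted bulk cells, fewer cells with the mark and less mark per cell cannot be told apart.

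ChIP libraries held 34.6 to 54.6 M tags and inputs 35.0 to 38.8 M. The lists had 35614 to 52510 peaks and covered 38.8 to 76.1 Mb. The shortest total of the embryonic lists, 43.6 Mb, was that of E12.5 replicate 1, which also had the lowest covered length at Prdm1 among them. ISC replicate 1, with 51.2 Mb against 76.1 Mb in replicate 2, likewise had the lower Prdm1 value of its pair. Covered lengths are therefore given as deposited and, for the whole locus, also scaled to the same total per list. The cell types were not checked against marker genes, because the gene table used here is on another build than the peaks.

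RefSeq lists 1 curated and 5 predicted transcripts of Prdm1 on GRCm38.p6, and the gene record with all of them is 91.4 kb long. From the end of the gene to the start of the curated promoter entry it measures 21.6 kb there, close to the length of the interval used here. Peaks called upstream here may thus lie inside the longer predicted gene models. The nearest protein-coding neighbours are Atg5, an autophagy gene, 72.9 kb past the end of the gene, and Prep, 539 kb from its other side. The nearest annotated gene of any kind is the long noncoding RNA Gm35028, 9.19 kb past the end.

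The promoter of the curated transcript is shown because all 8 libraries had peaks in the stretch next to the start of the gene interval, over 256 to 2317 bp. It was not placed on mm9, so whether these bases lie under a peak was not determined. The sequence is RefSeq's, GRCm38.p6, minus strand, chr10:44458699-44458998, 250 bases before to 50 after the start, with CpG dinucleotides in capitals.
Prdm1 promoter: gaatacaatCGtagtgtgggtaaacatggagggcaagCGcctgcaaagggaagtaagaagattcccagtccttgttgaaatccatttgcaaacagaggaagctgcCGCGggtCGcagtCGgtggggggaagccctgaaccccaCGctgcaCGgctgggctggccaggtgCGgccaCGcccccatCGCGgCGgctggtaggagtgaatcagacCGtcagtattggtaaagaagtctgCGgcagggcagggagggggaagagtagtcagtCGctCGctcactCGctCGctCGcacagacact
It holds 20 CpG dinucleotides, against a median of 7 over the 32851 promoters of the table, which places it at the 73.5th percentile. Its GC content is 59.7%. Both strands were searched for 7 motifs. The CCAAT box, CCAAT, occurs 1 time, on the strand opposite to the printed one, where the printed letters that match it begin at -31, counting the base before the start as -1. A CCAAT occurs in 37.4% of the promoters. The TATA box TATAAA (13.6% of promoters), the GC box GGGCGG (35.7%), AGATAA of GATA factors (11.2%), CTTTGAT of TCF factors (3.73%), TTTATNG of CDX factors (10.9%) and AGNGAAAG of PRDM1 itself (8.63%) were not in these 300 bases.

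**Figure D1:**
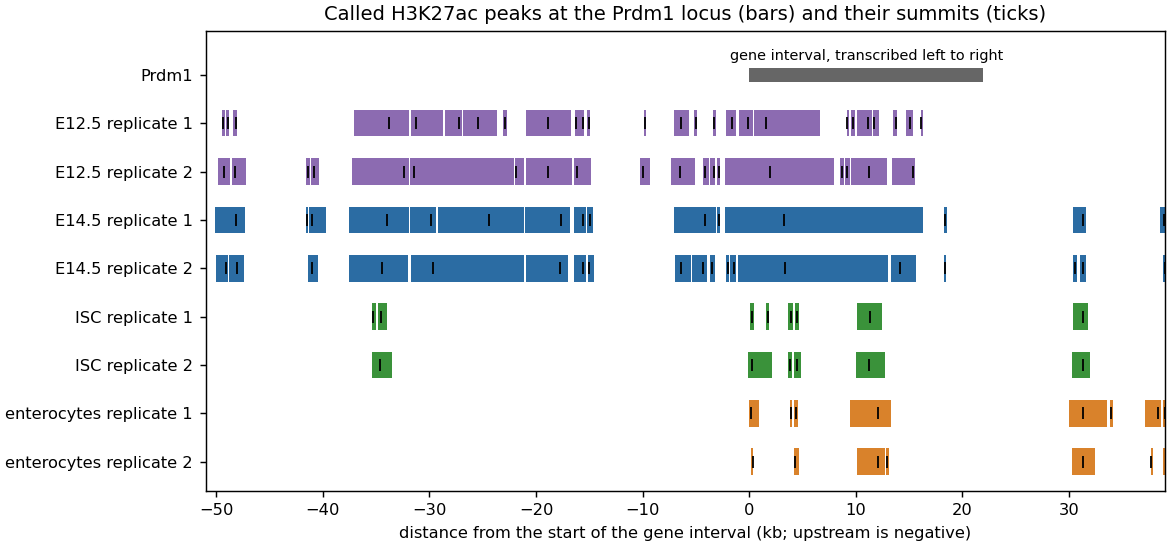
Called H3K27ac peaks (bars) and summits (ticks) in each of the 8 libraries, against the distance in kb from the start of the gene interval, upstream negative. The embryonic libraries carry long bars on both sides of the start, and the adult ones a few short bars, of which those upstream are in ISC only.

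Peaks covered a large part of the locus in the embryo and little of it in the adult. Of the 90 kb, they covered 33.5 and 46.6 kb in the E12.5 libraries, 51.4 and 47.3 kb in the E14.5 libraries, 6.37 and 9.74 kb in the ISC libraries and 10.8 and 6.20 kb in the enterocyte libraries. The lowest embryonic library stood above the highest adult one. The adult libraries averaged 8.28 ± 2.34 kb and the embryonic ones 44.7 ± 7.75 kb (mean ± SD, n = 4 each), a ratio of 0.185. As deposited, enterocytes and stem cells overlapped, and the E12.5 replicates lay further apart in kb than any other pair. Scaled by total covered length, the values were 41.4 and 41.8 kb in the E12.5 libraries, 42.5 and 44.7 kb in the E14.5 libraries, 6.69 and 6.88 kb in the ISC libraries and 15.0 and 8.59 kb in the enterocyte libraries. On that scale both enterocyte libraries stood above both ISC libraries, and the enterocyte pair lay furthest apart. The lowest embryonic library remained above the highest adult one.

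Adult and embryonic libraries differed less in the number of peaks than in covered length. The window held 26 and 19 peaks at E12.5, 15 and 19 at E14.5, 8 and 6 in ISC, and 8 and 7 in enterocytes. The longest was 18561 bp, in E14.5 replicate 1, and the longest adult peak was 3803 bp, in enterocytes replicate 1. A count of peaks does not follow the covered length here: the stretch over the gene was a single peak in E14.5 replicate 1 and several separate peaks in E12.5 replicate 1.

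Upstream of the gene the difference was greatest. There peaks covered 23.2 and 32.2 kb in the E12.5 libraries, 33.1 and 30.6 kb in the E14.5 libraries, 1.19 and 2.03 kb in the ISC libraries, and nothing in either enterocyte library. Within the gene interval the E12.5 libraries had 10.3 and 14.4 kb, the E14.5 libraries 16.6 and 15.6 kb, the ISC libraries 3.76 and 5.99 kb and the enterocyte libraries 5.30 and 3.62 kb. Peaks thus lay over a mean of 21.2% of the gene interval in the adult libraries, against 64.7% in the embryonic ones. Downstream of the gene the adult libraries were not below the embryonic ones as they were upstream: the E12.5 libraries had no peak, the E14.5 libraries 1.70 and 1.03 kb, the ISC libraries 1.42 and 1.72 kb and the enterocyte libraries 5.49 and 2.58 kb. E14.5 and ISC overlapped there, while both enterocyte libraries stood above all others.

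**Figure D2:**
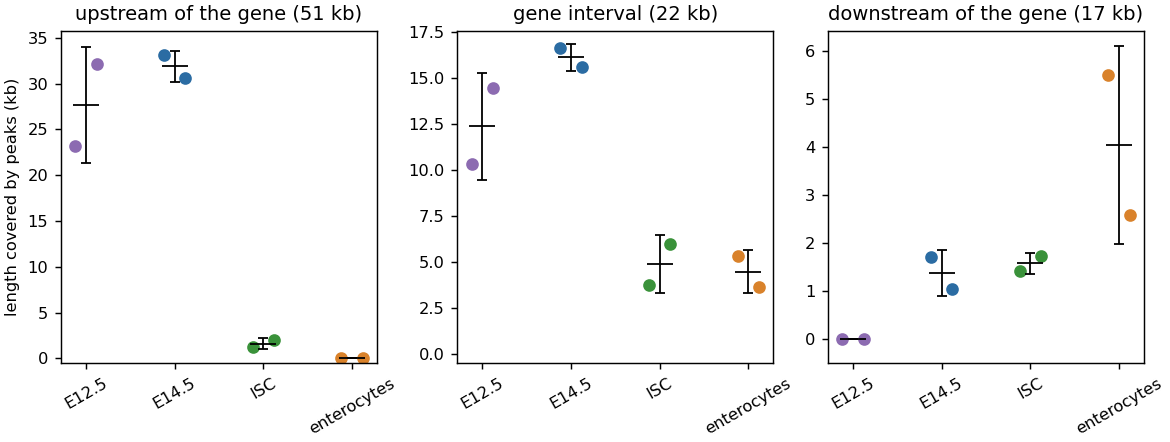
Length covered by peaks (kb) upstream of the gene, in the gene interval and downstream of it, by group. Points are libraries, and the black marks are the mean and SD of 2 libraries. Upstream cover is at most 2.03 kb in the adult libraries and at least 23.2 kb in the embryonic ones, and downstream cover is highest in enterocytes.

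Base by base, 57.5 kb of the window were covered in at least 1 library. Of these, 24.8 kb (43.1%) were covered in every embryonic and no adult library, a class that made up 4.86% of the covered bases of the genome. Bases covered in all 8 libraries came to 2.37 kb (4.12%), against 13.4% in the genome, and every one of them lay in the gene interval. Adult peaks covered 14.7 kb together, and 50.9% of these bases were covered in all 4 embryonic libraries, against 33.8% in the genome. The locus was chosen for its covered length, so its differences from these genome shares are a description. The bases with the mark in all adult libraries and no embryonic one were few, 0.146 kb, all downstream of the gene.

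Merging overlapping or touching peaks across the 8 libraries gave 14 regions in the window. Of these, 5 were present in every embryonic and no adult library, a class that held 5.08% of the 79482 regions of the genome. None was present in every adult and no embryonic library, against 1.95% in the genome. These counts, too, describe a locus chosen for a difference between the ages. A further 4 regions were in embryonic libraries alone without being in all of them, 1 was in an adult library alone, 1 was in all 8, and the remaining 3 were in some libraries of both ages.

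The region in all 8 libraries runs from 44162667 to 44181272 and holds the gene interval's start and much of its length. Peaks covered 12141 and 16694 bp of it at E12.5, 18561 and 17292 bp at E14.5, 3757 and 6118 bp in ISC, and 5305 and 3624 bp in enterocytes. It therefore counts as shared by presence although its covered length differs, with no overlap between adult and embryonic libraries. In E14.5 replicate 1 it is a single peak that ranks 11th by length among the 52363 of its list, and the 14034 bp peak in replicate 2 ranks 14th of 49088.

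Inside that region the adult libraries kept 4 separate stretches. The longest, 44165702 to 44169504, lies inside the gene. It was covered over 2222 and 3469 bp at E12.5, 3803 and 3504 bp at E14.5, 2322 and 2737 bp in ISC, and 3803 and 2912 bp in enterocytes. Here adult and embryonic libraries overlapped. Summits of all 4 adult and both E12.5 libraries lay together between 44166917 and 44167842, and the longer E14.5 peaks that span this stretch have their summits nearer the start of the gene. The peak caller gives 1 summit per peak, so a long peak shows only its highest point.

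The stretch at the start of the gene, 44176816 to 44179132, was covered over 2217 and 2317 bp at E12.5, all 2317 bp in both E14.5 libraries, 675 and 2317 bp in ISC, and 902 and 256 bp in enterocytes. Of the adult libraries, ISC replicate 2 reached the embryonic cover there and the other 3 did not. Summits from 44178667 to 44179101, a span of 434 bp, were found in all 4 adult libraries and in 1 of the 4 embryonic ones. The summits of the long embryonic peaks lay further into the gene, at 44177424 and 44177002 at E12.5 and at 44175721 and 44175595 at E14.5. The remaining 2 stretches, 44174154 to 44174799 and 44174914 to 44175384, were covered in full in every embryonic library, and the second had no peak in enterocytes replicate 2.

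Upstream, the region from 44200092 to 44210794, 21.1 to 31.8 kb from the start of the gene, had the longest cover without any adult peak. It held 8185 and 10592 bp at E12.5, 10561 and 10664 bp at E14.5 and none in the 4 adult libraries. By the smallest embryonic value, 8.19 kb, it ranked 4th among the 4035 regions of the genome that are in all embryonic and no adult libraries. Its neighbour from 44195645 to 44200024, with 3908 to 4266 bp in the embryonic libraries, ranked 46th. The other 3 regions of this kind, starting at 44182120, 44193576 and 44226171, had smallest embryonic values of 1.83, 0.988 and 0.873 kb and ranked 322nd, 1064th and 1229th. These ranks describe a locus picked for this difference. They also hang on short gaps. Only 0.153 kb without a peak parted the region ranked 4th from the next one upstream, which had ISC peaks. The gap to its neighbour ranked 46th was 0.067 kb. With merging within 1 kb, 1 region of the locus was in every embryonic and no adult library, in place of 5.

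The next region upstream, from 44210948 to 44216556, was the only one beyond the start of the gene with adult peaks. It was covered over 5121 and 5267 bp at E12.5 and 5609 and 5514 bp at E14.5, 1191 and 1900 bp in ISC, and not at all in enterocytes. The ISC peaks spanned 44212534 to 44214433, 33.5 to 35.4 kb from the start of the gene, and all of that stretch was covered in every embryonic library. The summits of ISC at 44213559 and 44213655 and of E14.5 replicate 2 at 44213468 lay within 187 bp of each other. Between the start of the gene and this stretch, 33.4 kb from 44179133 to 44212533 had no peak in any adult library.

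Downstream of the gene, the region from 44145447 to 44148934 had peaks in all adult libraries and at E14.5. It was bare at E12.5 and covered over 1274 and 922 bp at E14.5, 1420 and 1718 bp in ISC, and 3488 and 2156 bp in enterocytes. In these 6 libraries the highest points fell within 53 bp of each other, from 44147635 to 44147688. By the −log10 q of the authors' lists this summit stood between the 69.9th and the 82.1st percentile of its own list in the 4 adult libraries. Whether the peak belongs to Prdm1 or to the neighbouring noncoding RNA was not tested.

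At the lower edge of the window, the region from 44139155 to 44141861 crosses the boundary. It was without peaks at E12.5, held 1012 and 345 bp at E14.5, none in ISC, and 2555 and 940 bp in enterocytes. Peaks that lie partly outside the window are counted whole in region values and only by their inner part in window totals. One more region, from 44144871 to 44145166, had 296 bp in enterocytes replicate 1 alone.

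In every list the longest Prdm1 peak stood at a higher percentile by length than any Prdm1 peak did by −log10 q. By length, the median Prdm1 peak stood at percentile 34.45 and 66.6 at E12.5, and 73.5 and 64.0 at E14.5. In ISC it stood at 29.4 and 73.3, and in enterocytes at 64.75 and 31.9, so the ages overlapped. The embryonic lists also hold more Prdm1 peaks from which a highest value is taken. The highest −log10 q percentile of a Prdm1 peak was 89.0 and 93.9 at E12.5, 90.5 and 91.3 at E14.5, 73.6 and 82.8 in ISC, and 93.6 and 82.4 in enterocytes. No peak of the locus was among the top 5% of any list by this score. The longest peak ranked 134th of 46710 and 76th of 52510 in the E12.5 lists, 5218th of 44594 and 7243rd of 51824 in ISC, and 1230th of 36439 and 2697th of 35614 in enterocytes. The best-ranked adult peak, in enterocytes replicate 1, was the stretch inside the gene described above.

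**Figure D3:**
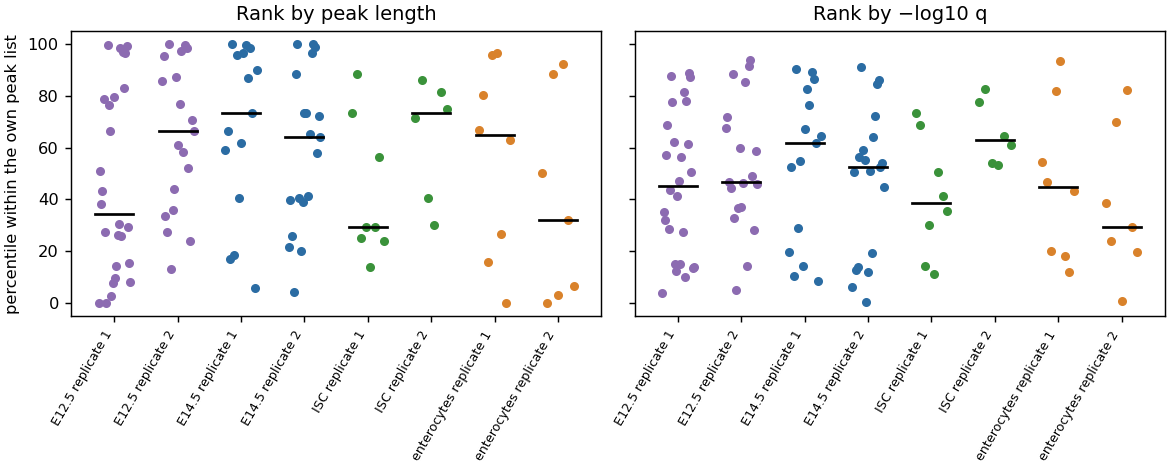
Percentile of each Prdm1 peak within its own list by length (left) and by −log10 q (right). Each point is a peak, and the bar is the median of the library. By −log10 q, no peak is above the 93.9th percentile of its list, whereas the longest embryonic peaks are near the top of their lists by length.

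The 108 summits fell into 41 clusters when summits within 500 bp were joined. Of these, 29 held embryonic libraries alone, 5 held adult libraries alone and 7 held both, classes that made up 33.2%, 30.6% and 36.2% of the 109954 clusters of the genome. The locus was chosen for such a difference, so the counts are a description. Upstream of the gene, 22 of 24 clusters held embryonic libraries alone. In 2 clusters, centred 3.12 and 48.2 kb upstream, all 4 embryonic libraries and no adult one took part, a class that held 3.72% of the clusters of the genome. The other embryonic clusters held 1 to 3 libraries each.

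Between the embryonic days the locus could be tested, since the choice of the locus did not use that contrast. In 10 kb windows fitted over the genome with limma, 1 of the 8 windows of the locus with peaks was called higher at E14.5, where 13.7% of all 41748 windows were. None was called lower, where 10.7% of all windows were, and none was lower at an unadjusted p under 0.05 either. All 8 had an embryonic peak, and among the 36448 windows of the genome with one, 15.7% were higher and 12.3% lower. The window called, 44140001 to 44150000 downstream of the gene, had 1.70 and 1.03 kb in the E14.5 libraries, against no peak in the E12.5 libraries. The difference was 1.75 ± 0.33 (SE) on the log2(covered bp + 500) scale, with an adjusted p of 0.0146 by limma over all windows. Its size depends on the length added before taking logs, because the E12.5 libraries had no peak there. It ran from 0.67 to 3.67 over 16 alternatives, both ends with a length other than 500 bp added. The call was lost in 9 of 16 alternatives, with adjusted p from 0.00189 to 0.108 by limma over all 16. It was lost without E12.5 replicate 1 (adjusted p = 0.100 by limma) or 2 (0.0861), without E14.5 replicate 1 (0.108) or 2 (0.0666), and without ISC replicate 1 (0.0548) or 2 (0.0549).

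Across the gene and upstream, no difference between E14.5 and E12.5 passed the test, which does not show that the days are alike. The 7 other windows had differences of -0.18 to 0.55 on that scale and adjusted p from 0.277 to 1 by limma, and 4 of them changed sign under at least 1 alternative without passing the test. One of them, from 44220001 to 44230000, was called without E12.5 replicate 2, with a difference of 1.05 and an adjusted p of 0.00121 by limma, and its adjusted p over the 16 alternatives ran up to 0.779. The E12.5 pair differed widely in the window from 44180001 to 44190000, with 3.00 and 5.87 kb, beside 5.47 and 4.40 kb at E14.5. The median difference over the 8 windows was -0.01, and 0.00 over all windows.

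**Figure D4:**
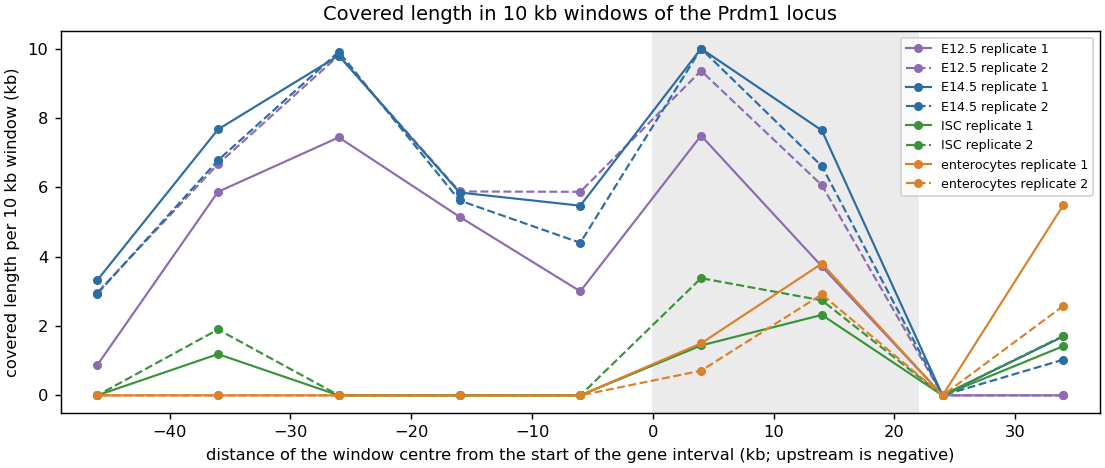
Covered length (kb) in each 10 kb window of the locus, plotted at the distance of the window's centre from the start of the gene interval (grey band), for each library. Upstream is negative. Embryonic libraries are high over the start of the gene and again 21 to 31 kb upstream, ISC have 1.19 and 1.90 kb in the window 31 to 41 kb upstream, and enterocytes are at 0 in all windows upstream of the one that holds the start.

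Enterocytes against ISC is the contrast within the adult, a stem cell and a cell type descended from it. Of the 8 windows, 4 had no peak in any adult library and could not differ, so the count is over the other 4. By limma, 1 of these was called lower in enterocytes and 2 were called higher. Among the 33264 windows of the genome with an adult peak, 29.4% were lower and 16.7% higher, and over all windows the shares were 23.4% and 13.3%. The lower one, 44210001 to 44220000, is the upstream window with the ISC peak, with no cover in enterocytes and 1.19 and 1.90 kb in ISC. It differed by -1.85 ± 0.11 (SE) on the log2(covered bp + 500) scale, with an adjusted p of 0.000151 by limma, and the call held in all 16 alternatives on the same windows (adjusted p from 3.99e-05 to 0.00205). No fold is given, because the enterocyte libraries had no peak there. For the same reason the size of the difference depends on the length added before taking logs. It ran from -3.8 to -0.72 over the 16 alternatives, both ends with a length other than 500 bp added. The enterocyte libraries, both at 0, add no spread to the SE, so the small SE does not make the size precise.

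Of the windows called higher, 44140001 to 44150000 downstream of the gene had 5.49 and 2.58 kb in enterocytes and 1.42 and 1.72 kb in ISC. The difference was 1.64 ± 0.33 (SE), with an adjusted p of 0.0127 by limma. The other, 44160001 to 44170000 inside the gene, had 3.80 and 2.91 kb in enterocytes and 2.32 and 2.74 kb in ISC, a difference of 0.94 ± 0.16 (SE) with an adjusted p of 0.00704. Both calls depend on scaling each library by its total covered length, which was 38.8 Mb in both enterocyte libraries and 51.2 and 76.1 Mb in ISC: without scaling the differences were 1.06 (adjusted p = 0.0627 by limma) and 0.34 (adjusted p = 0.353). Over the alternatives the adjusted p ran from 0.00298 to 0.104 for the first and from 0.00706 to 0.353 for the second. Without ISC replicate 2 neither passed (adjusted p = 0.104 and 0.0526 by limma). The first was also lost without ISC replicate 1 (adjusted p = 0.0662 by limma) and without E12.5 replicate 1 (0.0516) or 2 (0.0520). The second was also lost with peaks of −log10 q of at least 10 (adjusted p = 0.0979 by limma).

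The contrasts that chose the locus restate that choice, so their counts are a description and support nothing, whatever the shares beside them. Between ISC and E14.5, 7 of the 8 windows were past the limma threshold as lower in ISC, where 20.2% of all windows were, and none as higher, where 16.5% of all windows were. At an unadjusted p under 0.05 the count of windows higher in ISC was also 0. Between adult and embryo, 7 of the 8 were lower in the adult (38.3% of all windows) and 1 higher (27%), which is the downstream window. The median difference over the windows of the locus was -2.33 for ISC against E14.5 and -2.66 for adult against embryo on the log2 scale, beside -0.03 and -0.17 over all windows.

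By the fraction of covered length that they shared, libraries grouped by age. The locus was chosen for a difference in covered length by age, so these fractions are a description. Shared length, as a fraction of the length covered in at least 1 of a pair of libraries, was 0.707 for the E12.5 pair, 0.907 for the E14.5 pair, 0.651 for the ISC pair and 0.560 for the enterocyte pair. E12.5 and E14.5 libraries had 0.637 to 0.852 with each other, within or near the values of the embryonic replicate pairs. ISC and enterocytes had 0.371 to 0.525. The fraction was lowest between an adult and an embryonic library, from 0.0680 to 0.195. It cannot exceed the shorter covered length divided by the longer, and the lengths differ widely between the ages. In kb, ISC libraries shared 5.87 to 9.29 with E14.5, 4.39 to 8.02 with E12.5 and 4.32 to 5.96 with enterocytes. Enterocyte libraries shared 4.56 to 6.86 kb with E14.5 and 2.53 to 4.97 kb with E12.5.

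Set beside the genome in tiles of 90 kb, the locus ranked 4th of 14717 by mean covered length in the embryonic libraries and 1960th in the adult ones. By the embryonic mean less the adult mean it ranked 4th. The median tile with a peak had 1.45 kb in the adult and 2.07 kb in the embryonic libraries. The tiles have fixed edges and the window of the locus was laid around its peaks, which favours it. When the tiles were moved by 45 kb the ranks were 4th, 1932nd and 2nd.

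**Figure D5:**
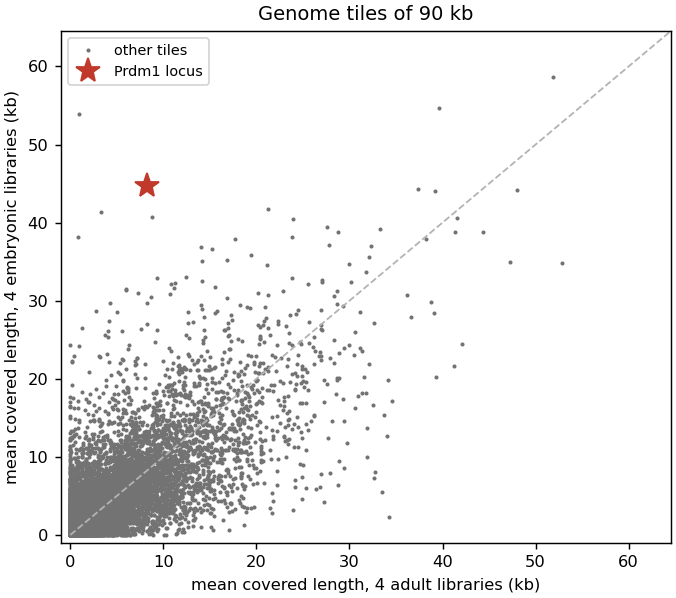
Mean covered length (kb) in the 4 adult (horizontal) and 4 embryonic libraries (vertical) for tiles of 90 kb over the genome, with the Prdm1 locus as a star and the line of equality dashed. The locus, at 8.28 kb in the adult and 44.7 kb in the embryo, lies far above the line among the tiles with the most embryonic cover.

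The 3 tiles most like the locus across the 8 libraries were at chr5:135360001-135450000, chr11:35730001-35820000 and chr9:66870001-66960000 on mm9, with Pearson r of 0.999, 0.992 and 0.987 on scaled covered length. They come from 788 tiles with at least 50% of the mean cover of the locus, of which 50 had r over 0.9. The 8 points are 4 pairs of replicates that share group and list size, so r is a description. None of the 3 had as steep a difference: in the first, the E12.5 libraries had 18.5 and 24.8 kb, the E14.5 libraries 28.1 and 24.4 kb, the ISC libraries 10.1 and 14.7 kb and the enterocyte libraries 9.58 and 8.05 kb.

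Beyond the window, a further embryonic block lay upstream. The region from 44236982 to 44250603, 58.0 to 71.6 kb from the start of the gene interval, was covered over 12012 and 12816 bp at E12.5, 13533 and 13220 bp at E14.5, 699 and 1275 bp in ISC, and 0 and 260 bp in enterocytes. It is outside the rule for the locus and enters no count above. In E12.5 replicate 1 its longest peak, 8578 bp, was longer than any peak in the window and ranked 38th in the list. In the 90 kb on the other side, past the end of the gene, no library had more than 1.44 kb.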

How the data were processed

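H3K27ac ChIP-seq was measured in 8 libraries, 2 for each of E12.5, E14.5, ISC and enterocytes, grouped by the labels. The tools were MACS2, SAMtools 1.2, Bowtie 1.1.2 and bcl2fastq 1.8.4 on build mm9, per the submitters' processing notes. Per the file headers, each library was called alone against its own input with MACS 2.1.0.20140616 at a q threshold of 0.05, with 51 bp tags and 1 tag kept per position. Per the file headers, the deposited pileup signal (coverage at a summit), the −log10 p and −log10 q values and the fold enrichment ratio are MACS output, and peaks were compared by them only inside their own list. Read counts were not used here, so precision rests on 2 libraries per group.

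Covered length was computed from the peak positions (Python 3.11.15, pandas 2.3.3, numpy 2.4.6; figures with matplotlib 3.10.9). Windows of 10 kb in which 2 or more libraries had a peak were scaled by total covered length and fitted as log2(bp + 500) on all 8 libraries in limma 3.58.1 (R 4.3.3, 4 residual degrees of freedom), with Benjamini-Hochberg adjustment over all windows and a threshold of 0.05. The fit was also run on simulated windows with the same normal spread in every library. These do not resemble windows in which a whole group had no peak, so they say nothing of calls there. Merged regions, base classes, summit clusters (500 bp linkage) and 90 kb tiles are counts with no test. All peaks, regions and windows of the locus were described, and the 3 tiles with the highest Pearson r were named. The locus and lists were chosen with earlier results of these data known. Promoter and gene context came from RefSeq on GRCm38.p6, and no coordinates were converted between builds. Replicate numbers were not taken to pair the libraries, and alternatives are given in the closing section.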

Additional observations from a re-analysis of the deposited data

How the results depend on the processing

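Among the summary results, 102 values under alternatives other than leaving out a library stayed close to those reported and 17 moved. Without scaling, 0 windows were higher in enterocytes than in ISC. With 2 kb in place of 500 bp added, with 35614 peaks in each list or with −log10 q of at least 10, 0 windows were higher at E14.5 than at E12.5. The −log10 q limit also gave 1 window higher in enterocytes, 3 regions in every embryonic and no adult library, and 46.2 kb covered at E14.5 in place of 49.4 kb. A covered length counted as close if it stayed within the SD of its own group. E12.5 fell further under that limit, from 40.1 to 33.4 kb, and counted as close only because its SD was 9.23 kb. With 20 kb windows, 1 was higher in enterocytes than in ISC, 4 were lower in ISC than at E14.5 and 4 were lower in adult than in embryo, fewer windows being tested. Scaling by total covered length gave 43.6 kb at E14.5 and 11.8 kb in enterocytes. Requiring 50% of a region to be covered left 0 regions in every library, merging within 1 kb left 8 regions, 1 of them in every embryonic and no adult library, and 1 kb linkage left 25 summit clusters. With shifted tiles the locus ranked 2nd by embryonic less adult length. Leaving out each library in turn gave 0 to 1 windows higher at E14.5 than at E12.5 and 0 to 2 higher in enterocytes than in ISC. Where not stated, the cause was not tested. For single windows, 227 of 256 values kept their direction, to 2 decimals, and their side of the threshold, 17 lost a call, 1 gained one and 11 changed sign, none of them a called difference. The 227 include enterocytes against ISC in the windows without an adult peak, which could not differ under any alternative. Leaving out a library outside a contrast, or adding a replicate block, could not change the difference itself either. At 44170001 the difference of E14.5 from E12.5 was 0 to 2 decimals, so no change of sign could be counted. Its alternatives ran from -0.09 to 0.24. On the log2 scale, the differences of E14.5 from E12.5 that changed sign without scaling were 0.20 in the window at 44180001, 0.05 at 44190001, 0.20 at 44200001 and 0.19 at 44210001. That at 44180001 was 0.49 with −log10 q of at least 10, and that at 44200001 was 0.05 with equal lists. Leaving out a library gave -0.25 to 0.20 at 44180001, -0.14 to 0.06 at 44200001 and -0.17 to 0.09 at 44210001, and -0.70 to 0.10 at 44170001 for enterocytes against ISC. The replicate block left the counts of locus windows as they were, with 1 higher at E14.5, 2 higher and 1 lower in enterocytes, 7 lower in ISC than at E14.5, and 1 higher and 7 lower in adult than in embryo. Replicate differences correlated between groups at -0.169 to 0.156, so the numbers were not taken as pairs. A block with the numbers of E14.5 and enterocytes crossed, chosen after seeing the data, gave the same locus counts, with 5625 windows of the genome higher and 4374 lower at E14.5. No read depth per region is known, and a stretch without a peak may still carry signal under the calling threshold.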
